A study of Gallus gallus with 5 samples.

Results

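ALDH1A2 and RDH10 encode the enzymes of the pathway from retinol to retinoic acid, and both were followed here in single cells of chicken embryos that had received a graft of somite progenitors. They were taken as the rows of those names, which are 2 of the 6940 genes in the tables, and were read in graft cells and host cells of each library. A graft cell was a barcode with at least 3 eGFP UMIs (unique molecular identifiers, the molecules counted for a gene), a host cell one with 0 eGFP UMIs, and both needed at least 2000 UMIs in all.

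RDH10 (retinol dehydrogenase 10) oxidises retinol to retinaldehyde, and ALDH1A2 (also called RALDH2) oxidises retinaldehyde to retinoic acid, a small signal that binds nuclear receptors. In vertebrate embryos the paraxial mesoderm, which forms the somites, is a main site of ALDH1A2 expression, and retinoic acid from it acts on the neighbouring neural plate and on Hox gene expression. MSGN1 is a transcription factor of ingressed and presomitic mesoderm, and MEOX1 is a transcription factor of forming somites, so these genes marked the cells in which the enzymes were looked for.

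Donor tissue came from embryos of a GFP transgenic line and was put into the matching place in wild-type embryos, the place being the streak region that holds the precursors of the medial somite. In heterochronic grafts (HH8-HH4), the donor was at Hamburger-Hamilton stage 8 and the host at stage 4. In homochronic grafts (HH4-HH4), donor and host were both at stage 4. The grafted region with its surrounding host tissue was collected 3 hr after grafting or within 30 minutes of it (0 hr), and 5 to 10 grafts were pooled per sample. Each pool was 1 library, so host cells are wild-type cells near the graft, and embryos within a pool share the library.

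HH8-HH4 3 hr gave 116 graft and 232 host cells, HH8-HH4 0 hr gave 2029 and 1726, HH4-HH4 3 hr gave 72 and 181, and HH4-HH4 0 hr gave 720 and 1764. Depth differed widely, the median barcode holding 981 UMIs in HH8-HH4 3 hr, where 534 of 943 barcodes had under 2000, and 38081 UMIs in HH4-HH4 3 hr. HH4-HH4 0 hr was deposited as 2 replicates that share 2755 barcodes, so only replicate 2 was used, whereas other pairs of libraries shared 0 to 2 barcodes. The donor stage was visible in HOXB8 and HOXA7, posterior Hox genes, at 1163 and 2434 CPM (UMIs scaled to a library total of 1000000) in HH8 grafts at 0 hr, against 14.8 and 24.5 CPM in their hosts and 0 in HH4 grafts at 0 hr. With 1 library per condition, differences between conditions carry no test, and the 95% intervals cover counting error only, not variation between embryos or libraries. Fewer cells that express a gene and fewer molecules per cell cannot be told apart in a summed level, which is why levels within marker classes are also given. Cells over 500 CPM of HINTW, a gene of the W chromosome carried by female birds, were also compared with the rest, since embryos pooled in a library can differ by it.

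The level of ALDH1A2 was lowest in HH8 grafts and highest in the HH4-HH4 3 hr library. In graft cells, it was 22.1 CPM (16.4 to 29.0) in HH8-HH4 3 hr, 7.97 CPM (6.76 to 9.35) in HH8-HH4 0 hr, 291 CPM (275 to 308) in HH4-HH4 3 hr and 66.3 CPM (61.5 to 71.4) in HH4-HH4 0 hr. In host cells of the same libraries it was 28.1 CPM (23.5 to 33.2), 177 CPM (171 to 184), 387 CPM (374 to 401) and 57.0 CPM (54.2 to 60). The only neighbours in this order with overlapping intervals were graft and host cells of HH8-HH4 3 hr. The UMIs were held by few cells: in HH4-HH4 0 hr hosts, the 10% of cells with the most ALDH1A2 UMIs held 80.6% of them.

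RDH10 spanned a narrower range of levels over the same groups. In graft cells, it was 23.8 CPM (17.9 to 31.0) in HH8-HH4 3 hr, 25.6 CPM (23.4 to 28.0) in HH8-HH4 0 hr, 124 CPM (114 to 136) in HH4-HH4 3 hr and 79.9 CPM (74.6 to 85.5) in HH4-HH4 0 hr. In host cells it was 40.2 CPM (34.7 to 46.3), 139 CPM (134 to 145), 201 CPM (191 to 211) and 64.4 CPM (61.4 to 67.5) in the same libraries. Graft cells of both HH8-HH4 libraries overlapped with each other, and so did HH8-HH4 0 hr hosts and HH4-HH4 3 hr grafts.

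**Figure D1:**
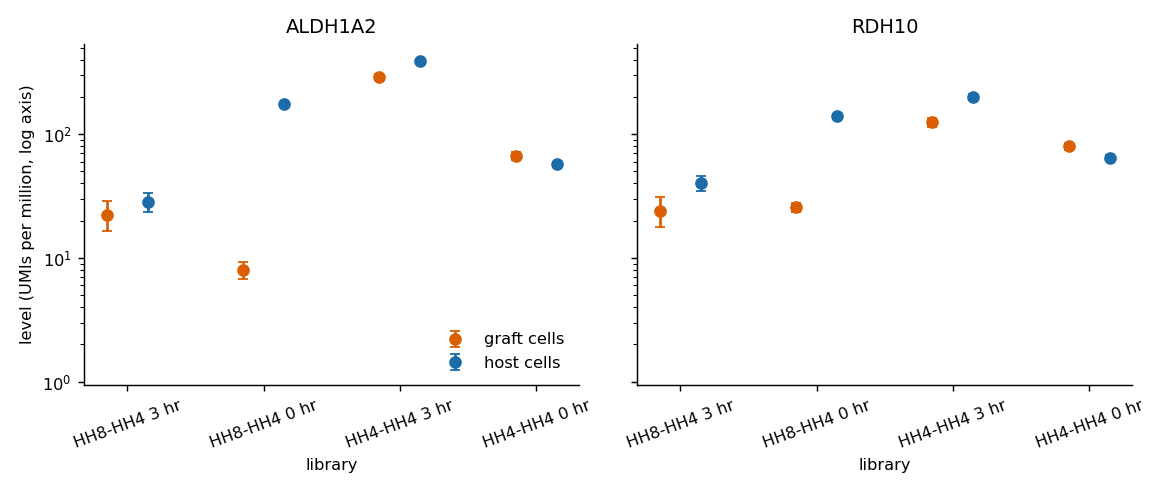
Level of ALDH1A2 (left) and RDH10 (right) in CPM on a log axis, for graft cells (orange) and host cells (blue) of each library, with 95% Poisson intervals of counting error. The widest gap between graft and host is in HH8-HH4 0 hr, at 7.97 against 177 CPM for ALDH1A2.

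HH8 grafts at 0 hr held far less of both messages than the stage 4 host cells around them. ALDH1A2 was 22.2-fold lower in graft than in host cells (18.8 to 26.3), a log2 ratio of -3.38 with 10 CPM added to both levels, and RDH10 was 5.44-fold lower (4.93 to 6.01; log2 -2.07). Both lay beyond 2-fold, which 5.93% of the 4387 genes with at least 100 UMIs did in that comparison. MSGN1 was also lower in these grafts, at 228 CPM against 940 CPM in their hosts. The summed levels of 5 node genes (52.5 against 906 CPM) and 4 endoderm genes (33.7 against 654 CPM) were lower too, and their part in the result was not tested. The graft level of ALDH1A2 lay near its 6.57 CPM in host cells with SOX3, an epiblast and neural gene, and no MSGN1. The graft level of RDH10, 25.6 CPM (23.4 to 28.0), lay below the 37.7 CPM (31.0 to 45.5) of those cells. The part of free RNA in the graft levels was not tested. By 3 hr, ALDH1A2 was 22.1 CPM in HH8 grafts and 28.1 CPM in hosts, a ratio of 0.786 (0.558 to 1.09), and RDH10 was 1.69-fold lower in the grafts (1.25 to 2.33). Neither passed 2-fold over all cells, where 5.7% of genes did. Among the graft cells with a UMI of HOXA7 or HOXB8, a split chosen after its values were seen, the log2 ratios were -1.47 for ALDH1A2 and -1.21 for RDH10. The split left out 23 graft cells that held 86.3% of the ALDH1A2 UMIs, which lowers the graft level by itself. Hosts were not split, and no share over all genes was taken for the split.

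Summed over all cells, stage-matched grafts differed from their hosts by less than 2-fold. At 0 hr, ALDH1A2 was 1.16-fold higher (1.06 to 1.27) and RDH10 1.24-fold higher (1.14 to 1.35) in HH4 grafts than in host cells. At 3 hr, they were 1.33-fold lower (1.24 to 1.42) and 1.61-fold lower (1.46 to 1.78) in the grafts. None of these ratios passed 2-fold, which 0.249% of all genes tested did at 0 hr and 1.12% at 3 hr. The sums joined gaps of opposite direction. For ALDH1A2 the log2 ratio of graft over host was 1.88 among cells over 500 CPM of HINTW and -1.57 among the rest at 0 hr, and -1.25 and 0.66 at 3 hr. For RDH10 it was 1.16 and -0.69 at 0 hr, and -0.84 and 0.09 at 3 hr.

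Between the times, the HH4-HH4 library at 3 hr held more of both messages than that at 0 hr, and the hosts of HH8-HH4 grafts the opposite. In HH4-HH4 hosts, ALDH1A2 was 6.79-fold higher at 3 hr (6.39 to 7.23; log2 2.57) and RDH10 3.12-fold higher (2.91 to 3.34; log2 1.50), both beyond 2-fold, as were 3.53% of all genes. In HH8-HH4 hosts, ALDH1A2 was 6.31-fold lower at 3 hr (5.30 to 7.55; log2 -2.30), the lowest log2 ratio of 4171 genes tested, and RDH10 was 3.46-fold lower (2.99 to 4.03; log2 -1.57), where 0.839% of genes passed 2-fold. Both host groups were wild-type tissue at stage 4 when grafted, and the difference between their directions was not tested. The makeup of the hosts moved as well. The summed level of 5 node and notochord genes was 2030 CPM at 3 hr and 906 CPM at 0 hr in HH8-HH4 hosts, and 723 and 1060 CPM in HH4-HH4 hosts. That of 4 endoderm genes was 425 and 654 CPM in HH8-HH4 hosts, and 89.2 and 411 CPM in HH4-HH4 hosts. That of 4 genes of posterior HH8 tissue was 155 and 469 CPM in HH8-HH4 hosts, and 1439 and 208 CPM in HH4-HH4 hosts. The part of these lists in the result was not tested. Among MSGN1 host cells alone, ALDH1A2 was 72.1 CPM at 3 hr and 413 CPM at 0 hr in HH8-HH4, and 783 and 140 CPM in HH4-HH4, so both directions were kept there. They were also kept for ALDH1A2 in either HINTW group, at log2 3.04 over 500 CPM and 2.88 in the rest of HH4-HH4 hosts, and -3.20 and -1.30 in HH8-HH4 hosts.

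In the grafts, ALDH1A2 was 4.39-fold higher at 3 hr in HH4-HH4 (log2 1.98, beside 3% of genes past 2-fold), and RDH10 1.56-fold higher (1.39 to 1.74). These values joined cells that differed, with log2 ratios of -0.09 for ALDH1A2 and -0.50 for RDH10 over 500 CPM of HINTW, against 5.12 and 2.58 in the rest. In HH8 grafts, ALDH1A2 was 2.77-fold higher at 3 hr (1.97 to 3.82; log2 0.83) on 51 UMIs, and RDH10 had a ratio of 0.929 (0.690 to 1.23), and neither passed 2-fold on the scale with 10 CPM added, as 2.1% of genes did. The log2 ratio of ALDH1A2 became -0.15 when a graft cell needed only 1 eGFP UMI.

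Set against HH4 donors, HH8 donors had 8.31-fold less ALDH1A2 at 0 hr (log2 -2.09) and 13.2-fold less at 3 hr (log2 -3.23). RDH10 was 3.12-fold lower at 0 hr (2.79 to 3.50) and 5.23-fold lower at 3 hr (3.96 to 7.04). All 4 ratios were past 2-fold, beside 6.89% of genes at 0 hr and 4.64% at 3 hr. On the scale with 10 CPM added, neither gene was past 2-fold at 0 hr within a HINTW group. The log2 ratios were 0.15 for ALDH1A2 and -0.29 for RDH10 over 500 CPM, and -0.78 and -0.56 in the rest. Over 500 CPM, they rested on 43 of 2029 HH8 graft cells, against 479 of 720 HH4 graft cells. Those 43 cells held 59 of the 152 ALDH1A2 UMIs of HH8 grafts, so their level does not stand for the other 1986 cells. The log2 ratios for the rest at 3 hr were -4.77 and -3.14, and 3 HH8 graft cells over 500 CPM gave no value. In the rest at 0 hr, ALDH1A2 was still 5.03 CPM (4.06 to 6.16) in HH8 grafts and 15.8 CPM (12.0 to 20.6) in HH4 grafts. These intervals did not overlap, and adding 10 CPM narrows the ratio of such low levels. The hosts also differed between the graft types. At 0 hr, ALDH1A2 was 3.10-fold higher (2.91 to 3.30; log2 1.48) and RDH10 2.16-fold higher (2.03 to 2.30; log2 1.00) in hosts of HH8 grafts than in hosts of HH4 grafts, where 0.335% of genes (15 of 4474) passed 2-fold. These host ratios were log2 3.45 and 2.11 over 500 CPM of HINTW, and 0.34 and 0.30 in the rest. At 3 hr, they were 13.8-fold lower (log2 -3.38) and 4.99-fold lower (4.29 to 5.82; log2 -2.07) in hosts of HH8 grafts, beside 4.04% of genes. The spread between host pools of 1 stage was thus as wide as several of the graft differences.

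Within the host cells of each library, ALDH1A2 was far higher in MSGN1 cells than in other cells. A cell was placed by whether at least 1 MSGN1 UMI was left after every cell had been thinned to 2000 UMIs, and levels were taken from all its UMIs. In host cells with MSGN1, ALDH1A2 was 72.1 CPM in HH8-HH4 3 hr, 413 CPM in HH8-HH4 0 hr, 783 CPM in HH4-HH4 3 hr and 140 CPM in HH4-HH4 0 hr. In host cells without MSGN1 it was 4.20, 15.4, 31.1 and 6.77 CPM in the same libraries. The folds were 17.2 (9.68 to 33.2), 26.9 (22.8 to 32.0), 25.1 (21.1 to 30.2) and 20.6 (17.0 to 25.2), and the ranges over libraries did not overlap.

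Leaving MSGN1 itself out, this ratio put ALDH1A2 first of all genes tested in every library, of 3190, 4036, 3571 and 4254 genes. Past 2-fold higher in MSGN1 cells were 0.627%, 1.34%, 1.82% and 0.799% of genes in these libraries. The mean log2 ratio was 3.50 ± 0.81 (SD, n = 4 libraries), positive in 4 of 4, with p = 0.125 (two-sided exact sign-flip permutation test, adjusted p = 0.25 over 6 tests), the smallest p that 4 libraries allow.

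RDH10 was also higher in MSGN1 host cells, by a smaller fold. With MSGN1 it was 62.6, 278, 343 and 116 CPM in the libraries in the order above, and without MSGN1 it was 28.1, 44.3, 72.2 and 33.0 CPM. The folds were 2.23 (1.66 to 2.99), 6.27 (5.64 to 6.99), 4.75 (4.19 to 5.40) and 3.51 (3.17 to 3.90), and RDH10 ranked 24th, 6th, 11th and 11th. Its ranges over libraries overlapped, through the low MSGN1 cells of HH8-HH4 3 hr, although MSGN1 cells were higher within each library. The mean log2 ratio was 1.75 ± 0.65 (SD, n = 4, positive in 4 of 4, exact permutation p = 0.125, adjusted p = 0.25). The log2 ratio of ALDH1A2 exceeded that of RDH10 by 1.76 ± 0.27 (SD, n = 4), in 4 of 4 libraries, with the same smallest exact permutation p of 0.125 (adjusted p = 0.25).

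The proportion of the messages therefore differed between classes of cells. Host cells with MSGN1 held 1.15, 1.49, 2.28 and 1.20 ALDH1A2 UMIs per RDH10 UMI in HH8-HH4 3 hr, HH8-HH4 0 hr, HH4-HH4 3 hr and HH4-HH4 0 hr. Host cells with neither MSGN1 nor MEOX1 held 0.149, 0.268, 0.430 and 0.187. These ratios compare classes of cells and say nothing on which message is more abundant, since the capture of 3′ ends can differ between genes.

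Cells with both MSGN1 and MEOX1 were the highest for both genes in each host group. ALDH1A2 in them was 153 CPM (7 cells) in HH8-HH4 3 hr, 753 CPM (150 cells) in HH8-HH4 0 hr, 1536 CPM (20 cells) in HH4-HH4 3 hr and 258 CPM (74 cells) in HH4-HH4 0 hr. Cells with MSGN1 alone held 63.8, 323, 577 and 125 CPM, and cells with neither 4.24, 10.9, 22.1 and 6.0 CPM. For RDH10, cells with both held 261, 459.5, 714 and 201 CPM, cells with MSGN1 alone 42.1, 229.9, 242 and 105 CPM, and cells with neither 28.4, 40.8, 51.4 and 32.1 CPM.

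MEOX1 cells without MSGN1 were few, with 15 cells in HH8-HH4 0 hr, 4 in HH4-HH4 3 hr and 27 in HH4-HH4 0 hr. They held 288, 543 and 71.3 CPM of RDH10 and 325, 235 and 39.6 CPM of ALDH1A2. In HH4-HH4 3 hr, their RDH10 was thus above and their ALDH1A2 below that of cells with MSGN1 alone, and in HH4-HH4 0 hr both were below it.

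**Figure D2:**
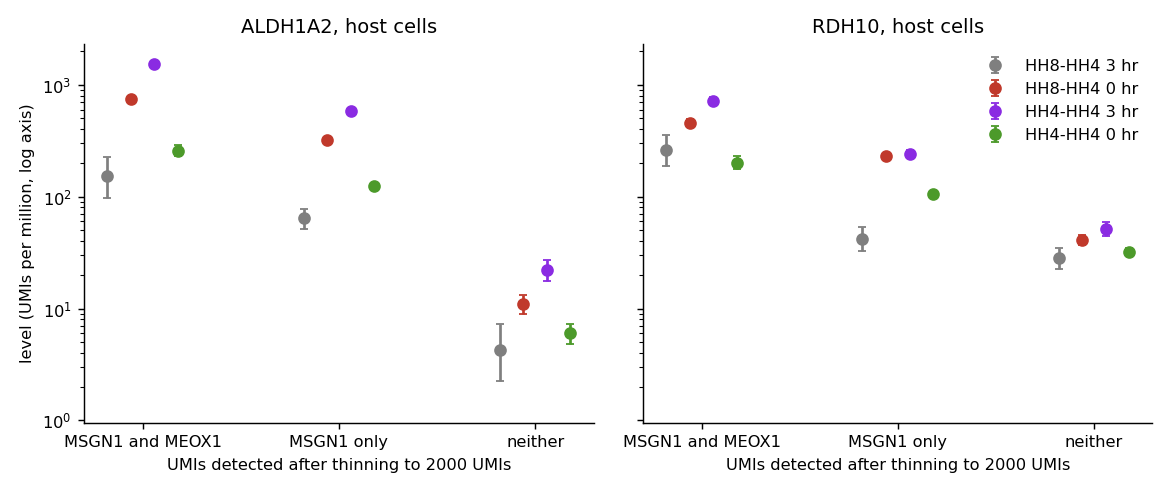
Level of ALDH1A2 (left) and RDH10 (right) in host cells, in CPM on a log axis, by detection of MSGN1 and MEOX1 after thinning to 2000 UMIs, with 95% Poisson intervals; colours are libraries. ALDH1A2 spans 258 to 6.0 CPM from the first class to the last in HH4-HH4 0 hr hosts, and RDH10 spans 201 to 32.1 CPM.

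Taken by MEOX1 alone, ALDH1A2 was 5.88-fold (5.45 to 6.35), 5.04-fold (4.69 to 5.42) and 4.16-fold (3.65 to 4.72) higher in MEOX1 host cells than in other host cells of HH8-HH4 0 hr, HH4-HH4 3 hr and HH4-HH4 0 hr. RDH10 was 4.12-fold (3.76 to 4.51), 5.16-fold (4.67 to 5.70) and 2.88-fold (2.51 to 3.30) higher. HH8-HH4 3 hr had 9 MEOX1 host cells, under the minimum of 20, and gave no value. The mean log2 ratios were 2.20 ± 0.31 and 1.87 ± 0.46 (SD, n = 3 libraries, positive in 3 of 3), with the exact permutation p at its smallest value of 0.25 (adjusted p = 0.25).

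Both genes were graded with the MSGN1 level of the cell at 0 hr. In HH8-HH4 hosts, ALDH1A2 was 5.84 CPM in cells with no MSGN1 UMI, 23.2 CPM at up to 500 CPM of MSGN1, 149 CPM at 500 to 1000, 344 CPM at 1000 to 2000, 556 CPM at 2000 to 4000 and 716 CPM above 4000. HH4-HH4 hosts followed the same order at 6.0, 7.18, 35.3, 127, 260.0 and 397 CPM, and HH4 grafts at 4.08, 15.4, 43.3, 136, 237 and 256 CPM. HH8 grafts reached only the first 4 steps with at least 20 cells, at 1.84, 3.22, 13.5 and 63.3 CPM. At each step that HH8 grafts reached, their ALDH1A2 was below that of their hosts.

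RDH10 was graded less steeply. It was 34.1, 62.6, 194, 215, 346 and 478 CPM over the 6 steps in HH8-HH4 hosts, 33.1, 34.5, 53.4, 103, 202 and 187 CPM in HH4-HH4 hosts, and 36.1, 46.6, 98.5, 131, 169 and 202 CPM in HH4 grafts. In HH8 grafts it stayed between 19.7 and 40.5 CPM over the 4 steps.

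**Figure D3:**
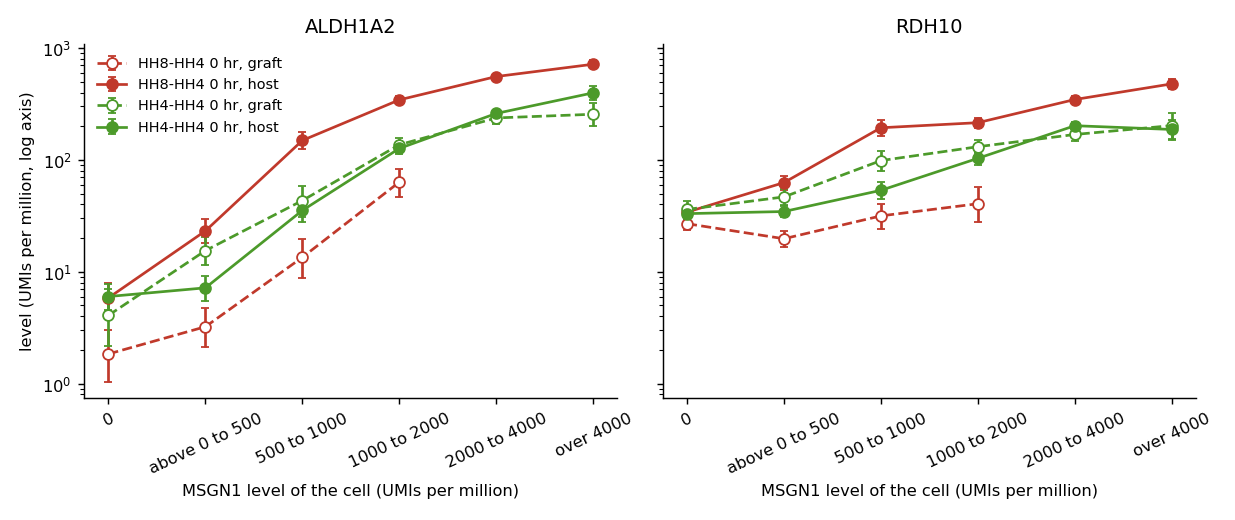
Level of ALDH1A2 (left) and RDH10 (right) at 0 hr in CPM on a log axis, against the MSGN1 level of the cells in steps of CPM, for graft (dashed, open) and host cells (solid), with 95% Poisson intervals. In the step from 1000 to 2000, ALDH1A2 is 63.3 CPM in HH8 grafts and 344 CPM in their hosts.

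The gap between HH8 grafts and their hosts at 0 hr was also present within MSGN1 cells. In them, ALDH1A2 was 23.1 CPM in 561 graft cells and 413 CPM in 730 host cells, 17.9-fold lower in the graft (14.9 to 21.7). RDH10 in the same cells was 28.6 CPM in graft and 278 CPM in host, 9.73-fold lower (8.22 to 11.6). This class needs only 1 MSGN1 UMI after thinning, so the MSGN1 level of its cells was not matched. Hosts had 307 cells at 2000 to 4000 CPM of MSGN1 and 89 above 4000. HH8 grafts had too few cells there for a level. Over the 4 lower steps, ALDH1A2 was 1.84, 3.22, 13.5 and 63.3 CPM in graft and 5.84, 23.2, 149 and 344 CPM in host. The part of MSGN1 level in the folds above and the weighting below was not tested. Weighting the graft's class levels by the host's class shares moved graft ALDH1A2 to 25.4 CPM and RDH10 to 29.5 CPM, against 177 and 139 CPM in the host, with a smallest graft class of 4 cells. Those 4 cells, with MSGN1 and MEOX1, held 9 ALDH1A2 UMIs, at 201 CPM (91.8 to 381). The weighted ALDH1A2 level rests largely on them, and no interval was taken for it.

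Summed over MSGN1 cells of HH4-HH4 0 hr, graft and host held the same level of ALDH1A2, at 140 CPM each (ratio 1.00, 0.911 to 1.10). RDH10 in them was 133 CPM in graft and 116 CPM in host. These sums joined opposite gaps. Over 500 CPM of HINTW, MSGN1 cells held 161 CPM of ALDH1A2 in graft and 41.6 CPM in host, and in the rest 53.4 and 161 CPM. RDH10 was 149 and 60.5 CPM over 500 CPM of HINTW, and 66.7 and 128 CPM in the rest. In HH4-HH4 3 hr, MSGN1 graft cells held 450 CPM of ALDH1A2 and host cells 783 CPM, 1.74-fold lower in the graft (1.62 to 1.86), and RDH10 was 166 and 343 CPM. This gap in ALDH1A2 also changed with HINTW, at 154 CPM in graft and 457 CPM in host over 500 CPM, and 980 and 1091 CPM in the rest. MSGN1 host cells differed between graft types at 0 hr too, with 413 CPM of ALDH1A2 and 278 CPM of RDH10 in HH8-HH4, against 140 and 116 CPM in HH4-HH4. For ALDH1A2 the levels in HH8-HH4 and HH4-HH4 were 532 and 41.6 CPM over 500 CPM of HINTW, and 259 and 161 CPM in the rest.

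ALDH1A2 followed MSGN1 within grafts as well, with 1 exception. MSGN1 graft cells and other graft cells held 23.1 and 2.44 CPM in HH8-HH4 0 hr, 450 and 38.7 CPM in HH4-HH4 3 hr, and 140 and 10.0 CPM in HH4-HH4 0 hr. In HH8-HH4 0 hr, 44 of the 561 MSGN1 graft cells had AGRP, another ingressed mesoderm marker. They held 84 of the 118 ALDH1A2 UMIs of the class, at 168 CPM. AGRP was far more common in their hosts, where 544 of the 730 MSGN1 cells had it. The paper lists AGRP among the genes higher in HH4-derived than in HH8-derived cells of its central clusters. Most of the ALDH1A2 in MSGN1 cells of HH8 grafts at 0 hr thus lay in cells with AGRP. Of the same 561 cells, 468 had HOXA7, a gene of the HH8 donor, and held 98 of the 118 UMIs. Over all HH8 grafts at 0 hr, cells with a HOXA7 or HOXB8 UMI held 100% of the 152 ALDH1A2 UMIs. The cells with AGRP are therefore not read as stage 4 cells. In HH4-HH4 0 hr, 247 of the 319 MSGN1 graft cells had AGRP and held 574 of the 639 UMIs. In HH8-HH4 3 hr, 13 MSGN1 graft cells held 14.9 CPM (4.07 to 38.2) and the other 103 held 23.0 CPM (16.9 to 30.6). The mean log2 ratio was 1.79 ± 1.66 (SD, n = 4, positive in 3 of 4, exact permutation p = 0.25, adjusted p = 0.25). For RDH10 it was 0.75 ± 0.82 (SD, n = 4, positive in 3 of 4, exact permutation p = 0.25, adjusted p = 0.25), with 28.6 and 24.5 CPM in HH8-HH4 0 hr grafts, a ratio of 1.16 (0.953 to 1.42).

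Most of the ALDH1A2 in HH8-HH4 3 hr grafts lay in a few cells with no UMI of the Hox genes that mark the donor, a split chosen after its values were seen. Of the 116 graft cells, 93 had a HOXA7 or HOXB8 UMI after thinning and 23 had none. ALDH1A2 was 3.75 CPM (1.51 to 7.72) in cells with the Hox genes and 99.2 CPM (72.1 to 133) in those without, and the 23 cells held 86.3% of its 51 UMIs. RDH10 was 11.8 and 74.4 CPM, and MEOX1 20.3 and 293 CPM, in the same groups. The 23 cells had a median of 29 eGFP UMIs, and 6 of them had MEOX1 without MSGN1. In cells with the Hox genes, the log2 ratio of 3 hr over 0 hr grafts became -0.40 for ALDH1A2 and -0.70 for RDH10. At 0 hr, 31 of 2029 HH8 graft cells lacked both Hox genes and held 0 ALDH1A2 UMIs, which allows up to 12.1 CPM.

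The levels themselves differed between cells with and without HINTW. In HH8-HH4 0 hr grafts, ALDH1A2 was 103 CPM in 43 cells over 500 CPM of HINTW, which held 59 of 152 UMIs, and 5.03 CPM in the other 1986. In their hosts it was 292 CPM in 776 cells and 87.1 CPM in 950. Within either HINTW group, HH8 grafts at 0 hr thus lay below their hosts, by log2 -1.42 and -2.69. Graft cells with an ALDH1A2 UMI had a median of 11888.5 UMIs and 1728 CPM of HINTW. Those without had 8765 UMIs and 135 CPM. HOXB8 was 857 CPM in the former and 1177 CPM in the latter. No doublet caller was run, and the part of doublets in the level of the 43 cells was not tested. That level is therefore not read as the level of female donors.

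In HH4-HH4 0 hr the groups went opposite ways in graft and host. Grafts held 91.7 CPM of ALDH1A2 in 479 cells over 500 CPM of HINTW and 15.8 CPM in the other 241, while hosts held 17.7 CPM in 332 cells and 66.8 CPM in 1432. In HH4-HH4 3 hr, grafts held 85.6 CPM in 46 cells over 500 CPM of HINTW and 887 CPM in 26, and hosts 218 CPM in 87 and 557 CPM in 94. RDH10 showed the same order in all 6 groups, as with 80.3 and 23.9 CPM in HH8-HH4 0 hr grafts and 39.2 and 70.6 CPM in HH4-HH4 0 hr hosts. The split held among MSGN1 cells, where ALDH1A2 was 139 and 13.7 CPM in HH8-HH4 0 hr grafts and 41.6 and 161 CPM in HH4-HH4 0 hr hosts.

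Differences between embryos and differences between conditions cannot be told apart in comparisons that change with HINTW. In HH8-HH4 3 hr, only 3 graft cells were over 500 CPM of HINTW, and hosts held 23.0 CPM of ALDH1A2 in 82 cells and 29.5 CPM in 150.

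**Figure D4:**
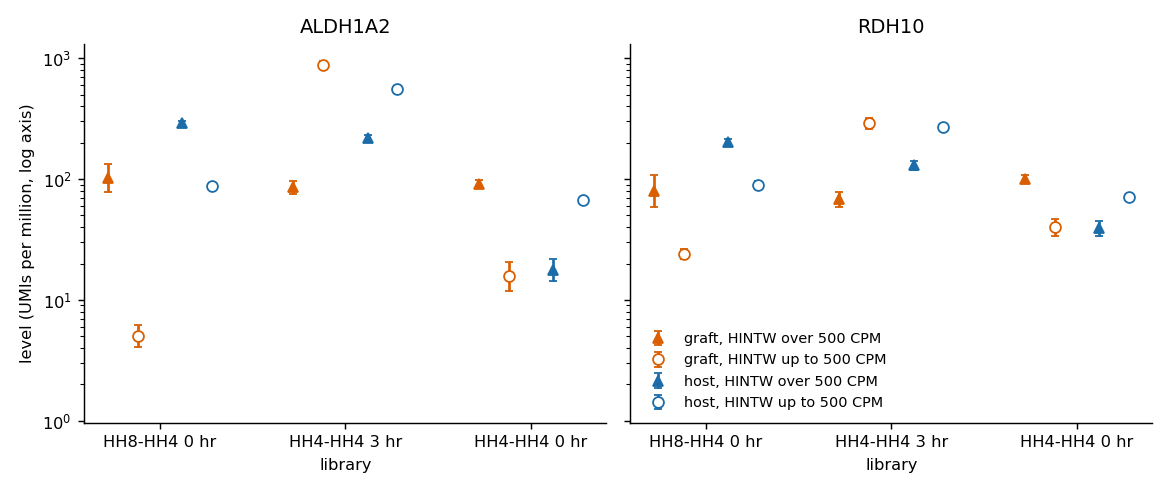
Level of ALDH1A2 (left) and RDH10 (right) in CPM on a log axis, in graft (orange) and host cells (blue) over 500 CPM of HINTW (triangles) and up to 500 CPM (open circles), with 95% Poisson intervals, in the 3 libraries with at least 20 cells in each group. In HH4-HH4 0 hr, ALDH1A2 is higher in HINTW cells of the graft (91.7 against 15.8 CPM) and lower in those of the host (17.7 against 66.8 CPM).

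Cells with a UMI of both enzymes were more common than the product of the single shares in the libraries that held enough of them. After thinning to 2000 UMIs, 9.56% of HH8-HH4 0 hr hosts (165 cells, 8.21% to 11.0%) held both, 2.55 times the product of 3.74%. In HH4-HH4 3 hr, both were found in 13.9% of grafts (10 cells) and 17.1% of hosts (31 cells), 1.90 and 1.97 times their products. In HH4-HH4 0 hr, they were found in 2.36% of grafts (17 cells) and 2.83% of hosts (50 cells), 2.60 and 3.17 times their products. HH8-HH4 0 hr grafts held 2 such cells of 2029 (0.0986%), and HH8-HH4 3 hr held 2 graft cells and 1 host cell.

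The excess was smaller among MSGN1 cells, where both genes are high. There, 29.3% of HH4-HH4 3 hr hosts held both, 1.31 times the product, 22.1% of HH8-HH4 0 hr hosts, 1.51 times, and 6.73% of HH4-HH4 0 hr hosts, 1.88 times. The highest value this ratio can take falls as the single shares rise. ALDH1A2 was detected in 58.7% of MSGN1 hosts and 32.0% of all hosts in HH4-HH4 3 hr. The smaller ratios are therefore not read as weaker co-detection. Among all hosts, RDH10 was detected in 52.4% of ALDH1A2 cells and 13.4% of other cells in HH8-HH4 0 hr, in 53.4% and 14.6% in HH4-HH4 3 hr, and in 38.5% and 10.0% in HH4-HH4 0 hr. Without thinning, both were found in 1.53% of grafts and 25.8% of hosts of HH8-HH4 0 hr, and in 22.2% and 16.5% of those of HH4-HH4 0 hr.

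Cells that should lack paraxial mesoderm genes gave the level of free RNA and of other expression. At the same 2000 UMIs, among hosts at 0 hr with SOX3, an epiblast and neural gene, and no MSGN1, both enzymes were found in 0 of 297 cells in HH8-HH4, which allows up to 1.01%, and in 0 of 289 in HH4-HH4, which allows up to 1.04%. ALDH1A2 alone was found in 1.01% and 0.692% of these cells and RDH10 in 6.73% and 4.15%. The shares were higher in 0 hr hosts with SOX17, an endoderm gene, and no MSGN1. Both enzymes were found there in 1 of 216 cells (0.463%) in HH8-HH4 and 2 of 164 (1.22%) in HH4-HH4. ALDH1A2 was found in 2.78% and 4.88% of these SOX17 cells and RDH10 in 16.7% and 14.0%. Over all HH8-HH4 0 hr grafts, the shares of ALDH1A2 cells (1.08%) and RDH10 cells (3.84%) were close to or under those of SOX3 host cells. A UMI in a single graft cell is therefore not read as expression, and the summed graft levels can hold free RNA, whose part was not tested.

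RDH10 outside MSGN1 cells differed with the marker gene detected. In 0 hr hosts without MSGN1, cells with GATA5 held 104 CPM in HH8-HH4 (62 cells) and 83.1 CPM in HH4-HH4 (60 cells), and cells with SOX17 held 81.5 CPM (216 cells) and 75.7 CPM (164 cells). The other endoderm genes were lower, with 58.3 and 42.2 CPM in FOXA2 cells and 44.6 and 37.6 CPM in GATA6 cells. Cells with LMO2, a blood and vessel gene, held 125 CPM in HH8-HH4 (23 cells), and those with MEOX1 the 288 and 71.3 CPM given above. Cells with CDX4, a gene of the posterior streak, held 72.8 CPM (174 cells) and 70.9 CPM (67 cells). Those with CDX2, from the same marker list, held less, at 50.6 CPM (333 cells) and 37.1 CPM (226 cells). Those with HOXA7 held 56.2 CPM in HH8-HH4 (44 cells). Node genes lay lower, with 25.4 and 24.7 CPM in CHRD cells and 13.5 and 21.4 CPM in ADMP cells. ALDH1A2 was 12.8 and 18.1 CPM in SOX17 cells and 2.3 and 1.7 CPM in ADMP cells, far below the 413 and 140 CPM of MSGN1 cells in the same hosts.

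Across host cells at 0 hr, both enzymes varied most like MSGN1, the measure being the lower of the Pearson correlations over 1726 HH8-HH4 and 1764 HH4-HH4 cells among 3638 genes. For ALDH1A2, r was 0.548 and 0.357 with MSGN1, 0.398 and 0.304 with AGRP, 0.315 and 0.238 with CDH2 (N-cadherin), 0.234 and 0.252 with MEIS1 (a homeobox cofactor of Hox proteins), and 0.356 and 0.231 with DLL1 (a Notch ligand). For RDH10, r was 0.409 and 0.281 with MSGN1, 0.328 and 0.266 with AGRP, 0.249 and 0.208 with CDH2, 0.402 and 0.207 with ALDH1A2, and 0.255 and 0.200 with DLL1. Of the 10 genes most like each, 6 were shared. The ranking used 0 hr hosts only. In 3 hr hosts of HH8-HH4 and HH4-HH4, r with MSGN1 was 0.286 and 0.647 for ALDH1A2, and 0.0859 and 0.367 for RDH10. There, r with MEOX1 was higher for RDH10, at 0.316 and 0.382, and lower for ALDH1A2, at 0.0678 and 0.369. Cells of a library share its preparation, and each cell had been thinned to the same number of UMIs.

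Of 41 genes listed for retinoic acid synthesis, transport, degradation, reception and response, 25 were in the tables, and 19 had at least 100 UMIs, 17 of them besides ALDH1A2 and RDH10. ALDH1A1 and CYP26A1, a paralogous synthesis enzyme and an enzyme that degrades retinoic acid, were near absent, with 2 and 88 UMIs over all libraries. Genes of retinoid uptake and binding differed from ALDH1A2 in direction or size. STRA6, a receptor for retinol uptake, was 102 CPM in HH8 grafts at 0 hr and 23.2 CPM in their hosts, and 102 and 22.0 CPM at 3 hr. RBP5, which binds retinol, was 351 CPM in grafts and 313 CPM in hosts of HH8-HH4 0 hr, and CRABP1, which binds retinoic acid, was 28.3 and 50.2 CPM.

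Beside ALDH1A2 and RDH10, 3 of 15 list genes tested were past 2-fold higher and 0 lower in HH8 grafts over hosts at 0 hr (STRA6, HOXA2 and HOXD4), with a list median log2 of 0.14 against -0.08 for all genes, of which 5.93% were past 2-fold. HOXD4 and HOXA2, Hox genes that respond to retinoic acid, were 69.4 and 77.4 CPM in the grafts and 3.33 and 17.6 CPM in the hosts. At 3 hr, 2 of 7 were higher, STRA6 and HOXD4, beside 5.7% of all genes past 2-fold. The summed level of 4 genes of posterior HH8 tissue was 5439 CPM in grafts and 469 CPM in hosts at 0 hr, and 3736 and 155 CPM at 3 hr. The paper reports HOXA2 in the HH8 but not the HH4 progenitor region. The part of donor stage in these counts was not tested. In HH4-HH4, 0 of 13 list genes at 0 hr and 0 of 15 at 3 hr were past 2-fold between graft and host, beside 0.249% and 1.12% of all genes.

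Between times, many list genes were higher at 3 hr in HH4-HH4, as the enzymes were. In hosts, 8 of 16 were past 2-fold higher at 3 hr and 0 lower (median log2 1.15 against -0.05 for all genes), and in grafts 7 of 14 (1.01 against -0.08). Of all genes, 3.53% were past 2-fold in hosts and 3% in grafts. The 8 in hosts were DHRS3, STRA6 and the response genes HOXB1, HOXA2, HOXB4, HOXD4, MEIS1 and MEIS2. The 7 in grafts were the same without MEIS1. The summed level of 4 genes of posterior HH8 tissue was also higher at 3 hr. It was 1439 CPM against 208 CPM at 0 hr in hosts, and 889 against 109 CPM in grafts. Its part in these counts was not tested. DHRS3, which reduces retinaldehyde back to retinol, was 91.3 CPM in grafts and 50.7 CPM in hosts at 3 hr, against 3.22 and 2.85 CPM at 0 hr. STRA6 was 111 and 113 CPM at 3 hr, against 15.6 and 12.5 CPM at 0 hr, and HOXA2 was 36.2 and 51.5 CPM, against 1.61 and 4.02 CPM.

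In HH8-HH4, 0 of 14 list genes in grafts were past 2-fold between times, and 2 of 13 in hosts were lower at 3 hr (HOXA2 and MEIS1), beside 2.1% and 0.839% of all genes. MEIS1 was 7.33 CPM in hosts at 3 hr, against 29.3 CPM at 0 hr. Between graft types, 5 of 14 were higher in HH8 than in HH4 grafts at 0 hr (STRA6, HOXB1, HOXA2, HOXB4 and HOXD4), and 0 of 14 were past 2-fold between their hosts, beside 6.89% and 0.335% of all genes. At 3 hr, HOXD4 was higher and DHRS3 lower among 12 tested in grafts, while 9 of 15 were lower in hosts of HH8 grafts (median log2 -1.54 against 0.04), beside 4.64% of all genes in grafts and 4.04% in hosts. The 9 were RARB and the 8 genes named above for HH4-HH4 hosts. The summed level of the 4 posterior genes was 5439 CPM in HH8 grafts and 109 CPM in HH4 grafts at 0 hr. In hosts at 3 hr it was 155 CPM in HH8-HH4 and 1439 CPM in HH4-HH4. Its part in these counts was not tested. All these comparisons share libraries, so their counts are not separate observations.

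**Figure D5:**
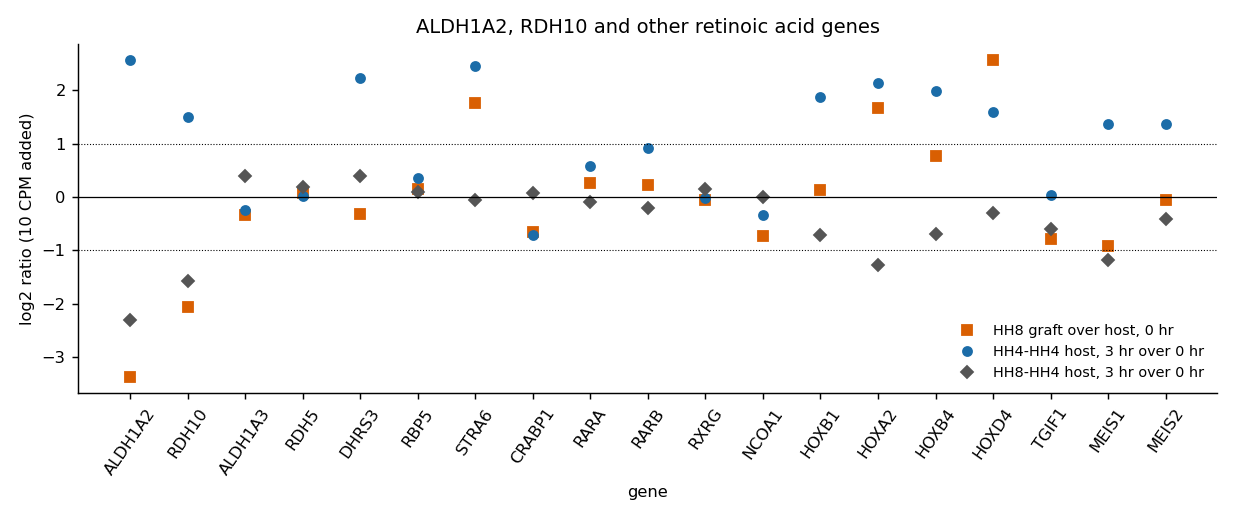
Log2 ratio (10 CPM added) of ALDH1A2, RDH10 and 17 other retinoic acid genes for HH8 grafts over hosts at 0 hr (squares) and for 3 hr over 0 hr in HH4-HH4 hosts (circles) and HH8-HH4 hosts (diamonds); dotted lines mark 2-fold. STRA6, HOXA2 and HOXD4 lie above the upper line for HH8 grafts over hosts, where ALDH1A2 (-3.38) and RDH10 (-2.07) lie below the lower one.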

How the data were processed

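The authors made 10x Genomics 3′ libraries and deposited raw UMI counts for each gene and barcode. The table headers give CellRanger 6.1.1, and the submitters' processing notes name the galGal6 build. The barcodes were those kept by cell calling. The total UMIs per library lay between 8970436 and 40735693. Replicate 1 of HH4-HH4 0 hr was used for its barcodes only. The tables listed 6940 genes, or 6939 for HH4-HH4 3 hr.

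UMIs were summed over the cells of a group and scaled to 1000000 (CPM), with exact Poisson intervals for levels, exact conditional intervals for folds and Clopper-Pearson intervals for shares, all at 95%. A count of 0 was taken to allow 3 counts for shares, and the exact Poisson bound for levels. Log2 ratios had 10 CPM added, and genes with at least 100 UMIs over both groups were counted past 2-fold. Cells were placed by at least 1 UMI after thinning to 2000 UMIs (seed 1). Class contrasts were tested over libraries by exact sign-flip permutation, with Benjamini-Hochberg adjustment over 6 tests. No doublet caller was run, and leaving out the 5% of barcodes with the most UMIs was an alternative. Named genes are both enzymes, the cell type markers, the pathway genes with at least 100 UMIs and the 5 genes most like each enzyme by correlation, with ALDH1A1 and CYP26A1 added after their counts were seen. The members and lists were chosen with earlier results of these data known, as was the HINTW limit of 500 CPM. The ratios were tested on simulated data. Python 3.11.15, numpy 2.4.6, scipy 1.17.1, pandas 2.3.3 and statsmodels 0.14.6 were used.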

Additional observations from a re-analysis of the deposited data

Results flagged for a closer look

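Hosts of both graft types were wild-type tissue at stage 4 when grafted, and the change between 0 hr and 3 hr had opposite directions in them. The log2 ratio of 3 hr over 0 hr for ALDH1A2 was -2.30 in HH8-HH4 hosts and 2.57 in HH4-HH4 hosts. That of RDH10 was -1.57 in HH8-HH4 hosts and 1.50 in HH4-HH4 hosts. Each ratio compares 1 library with 1 other, and the difference between them was not tested.

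The log2 ratio of graft over host at 0 hr also differed in direction between graft types. For ALDH1A2 it was -3.38 in HH8-HH4 and 0.19 in HH4-HH4, and for RDH10 it was -2.07 in HH8-HH4 and 0.27 in HH4-HH4. This difference was not tested, with 1 library per graft type.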

How the results depend on the processing

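Every MSGN1 and MEOX1 contrast kept its direction under every alternative run, with a mean log2 ratio of 3.20 to 4.32 for ALDH1A2 and 1.24 to 2.02 for RDH10 in MSGN1 over other host cells. None of them could pass a threshold with 3 or 4 libraries. Of 264 alternatives for the ratios between libraries, 2 turned a ratio past 2-fold to the other direction, both among cells over 500 CPM of HINTW, 76 moved the value by more than its counting interval and 186 did not. Ratios under 2-fold changed sign too, as listed here. The 12 counts over all genes stayed within 1.5 times. The MSGN1 and MEOX1 contrasts were paired within each library. Between conditions no pairing was possible, because each condition gave 1 library. Leaving out a replicate was not possible for the same reason. The causes of the changes listed here were not tested, beyond fewer cells or UMIs where a limit was raised. Among cells with over 500 CPM of HINTW, the log2 ratio of ALDH1A2 was -1.42 for graft over host in HH8-HH4 0 hr, -1.25 for graft over host in HH4-HH4 3 hr, 1.88 for graft over host in HH4-HH4 0 hr, -3.20 for 3 hr over 0 hr in HH8-HH4 hosts, -0.0891 for 3 hr over 0 hr in HH4-HH4 grafts, 3.04 for 3 hr over 0 hr in HH4-HH4 hosts, -2.79 for HH8-HH4 over HH4-HH4 hosts at 3 hr, 0.15 for HH8-HH4 over HH4-HH4 grafts at 0 hr and 3.45 for HH8-HH4 over HH4-HH4 hosts at 0 hr. That of RDH10 was then -1.24 for graft over host in HH8-HH4 0 hr, -0.84 for graft over host in HH4-HH4 3 hr, 1.16 for graft over host in HH4-HH4 0 hr, -2.03 for 3 hr over 0 hr in HH8-HH4 hosts, -0.50 for 3 hr over 0 hr in HH4-HH4 grafts, -1.42 for HH8-HH4 over HH4-HH4 hosts at 3 hr, -0.29 for HH8-HH4 over HH4-HH4 grafts at 0 hr and 2.11 for HH8-HH4 over HH4-HH4 hosts at 0 hr. Among cells with up to 500 CPM of HINTW, the log2 ratio of ALDH1A2 was -2.69 for graft over host in HH8-HH4 0 hr, 0.66 for graft over host in HH4-HH4 3 hr, -1.57 for graft over host in HH4-HH4 0 hr, -1.30 for 3 hr over 0 hr in HH8-HH4 hosts, 5.12 for 3 hr over 0 hr in HH4-HH4 grafts, 2.88 for 3 hr over 0 hr in HH4-HH4 hosts, -4.77 for HH8-HH4 over HH4-HH4 grafts at 3 hr, -3.84 for HH8-HH4 over HH4-HH4 hosts at 3 hr, -0.78 for HH8-HH4 over HH4-HH4 grafts at 0 hr and 0.34 for HH8-HH4 over HH4-HH4 hosts at 0 hr. For RDH10 it was -1.55 for graft over host in HH8-HH4 0 hr, 0.0854 for graft over host in HH4-HH4 3 hr, -0.69 for graft over host in HH4-HH4 0 hr, -1.0 for 3 hr over 0 hr in HH8-HH4 hosts, 2.58 for 3 hr over 0 hr in HH4-HH4 grafts, 1.80 for 3 hr over 0 hr in HH4-HH4 hosts, -3.14 for HH8-HH4 over HH4-HH4 grafts at 3 hr, -2.50 for HH8-HH4 over HH4-HH4 hosts at 3 hr, -0.56 for HH8-HH4 over HH4-HH4 grafts at 0 hr and 0.30 for HH8-HH4 over HH4-HH4 hosts at 0 hr. With 1 CPM added before the logarithm, the log2 ratio of ALDH1A2 was -4.31 for graft over host in HH8-HH4 0 hr, 1.36 for 3 hr over 0 hr in HH8-HH4 grafts, -2.61 for 3 hr over 0 hr in HH8-HH4 hosts, 2.12 for 3 hr over 0 hr in HH4-HH4 grafts, 2.74 for 3 hr over 0 hr in HH4-HH4 hosts, -3.66 for HH8-HH4 over HH4-HH4 grafts at 3 hr, -3.74 for HH8-HH4 over HH4-HH4 hosts at 3 hr, -2.91 for HH8-HH4 over HH4-HH4 grafts at 0 hr and 1.62 for HH8-HH4 over HH4-HH4 hosts at 0 hr. That of RDH10 was then -2.40 for graft over host in HH8-HH4 0 hr, 1.62 for 3 hr over 0 hr in HH4-HH4 hosts, -2.29 for HH8-HH4 over HH4-HH4 hosts at 3 hr, -1.61 for HH8-HH4 over HH4-HH4 grafts at 0 hr and 1.10 for HH8-HH4 over HH4-HH4 hosts at 0 hr. At a minimum of 10000 UMIs per barcode, the log2 ratio of ALDH1A2 was -2.77 for graft over host in HH8-HH4 0 hr, -2.03 for 3 hr over 0 hr in HH8-HH4 hosts, -1.68 for HH8-HH4 over HH4-HH4 grafts at 0 hr and 1.29 for HH8-HH4 over HH4-HH4 hosts at 0 hr. For RDH10 it was -1.70 for graft over host in HH8-HH4 0 hr, -1.35 for 3 hr over 0 hr in HH8-HH4 hosts, -1.16 for HH8-HH4 over HH4-HH4 grafts at 0 hr and 0.78 for HH8-HH4 over HH4-HH4 hosts at 0 hr. With graft cells defined by 1 or more eGFP UMIs, the log2 ratio of ALDH1A2 was -2.62 for graft over host in HH8-HH4 0 hr, -0.15 for 3 hr over 0 hr in HH8-HH4 grafts and -1.30 for HH8-HH4 over HH4-HH4 grafts at 0 hr. That of RDH10 was then -1.79 for graft over host in HH8-HH4 0 hr and -1.0 for HH8-HH4 over HH4-HH4 grafts at 0 hr. As means of each cell's CPM, the log2 ratio of ALDH1A2 was -0.0472 for graft over host in HH4-HH4 3 hr and 2.43 for 3 hr over 0 hr in HH4-HH4 grafts. For RDH10 it was -0.48 for graft over host in HH4-HH4 3 hr and 0.84 for 3 hr over 0 hr in HH4-HH4 grafts. Without the 5% of barcodes with the most UMIs, the log2 ratio of ALDH1A2 was -0.0987 for graft over host in HH4-HH4 3 hr, 2.40 for 3 hr over 0 hr in HH4-HH4 grafts and 2.72 for 3 hr over 0 hr in HH4-HH4 hosts. That of RDH10 was then -0.47 for graft over host in HH4-HH4 3 hr, 0.84 for 3 hr over 0 hr in HH4-HH4 grafts and 1.62 for 3 hr over 0 hr in HH4-HH4 hosts. Among HH8-HH4 graft cells with a HOXA7 or HOXB8 UMI, an alternative chosen after seeing the data, the log2 ratio of ALDH1A2 was -1.47 for graft over host in HH8-HH4 3 hr and -0.40 for 3 hr over 0 hr in HH8-HH4 grafts. For RDH10 it was -1.21 for graft over host in HH8-HH4 3 hr and -0.70 for 3 hr over 0 hr in HH8-HH4 grafts. The share of cells with both genes without thinning was 8.62% in HH8-HH4 3 hr grafts, 8.19% in HH8-HH4 3 hr hosts, 1.53% in HH8-HH4 0 hr grafts, 25.8% in HH8-HH4 0 hr hosts, 58.3% in HH4-HH4 3 hr grafts, 50.3% in HH4-HH4 3 hr hosts, 22.2% in HH4-HH4 0 hr grafts and 16.5% in HH4-HH4 0 hr hosts. The share of cells with both genes after thinning to 1000 UMIs was 0% in HH8-HH4 3 hr grafts, 0% in HH8-HH4 0 hr grafts, 3.94% in HH8-HH4 0 hr hosts, 5.56% in HH4-HH4 3 hr grafts, 9.39% in HH4-HH4 3 hr hosts, 0.972% in HH4-HH4 0 hr grafts and 0.794% in HH4-HH4 0 hr hosts. The share of cells with both genes at 2 or more UMIs was 0% in HH8-HH4 3 hr grafts, 0% in HH8-HH4 3 hr hosts, 0% in HH8-HH4 0 hr grafts, 2.67% in HH8-HH4 0 hr hosts, 8.84% in HH4-HH4 3 hr hosts, 0.278% in HH4-HH4 0 hr grafts and 0.227% in HH4-HH4 0 hr hosts. The share of cells with both genes with graft cells defined by 1 eGFP UMI was 0.983% in HH8-HH4 0 hr grafts. The share of cells with both genes at a minimum of 10000 UMIs was 8.15% in HH8-HH4 0 hr hosts. With 1 CPM added, the other pathway genes past 2-fold were 6 for graft over host in HH8-HH4 0 hr, 1 for 3 hr over 0 hr in HH8-HH4 grafts, 4 for 3 hr over 0 hr in HH8-HH4 hosts, 5 for HH8-HH4 over HH4-HH4 grafts at 3 hr, 8 for HH8-HH4 over HH4-HH4 grafts at 0 hr and 3 for HH8-HH4 over HH4-HH4 hosts at 0 hr. With 1 eGFP UMI for graft cells, the other pathway genes past 2-fold were 1 for 3 hr over 0 hr in HH8-HH4 grafts and 4 for HH8-HH4 over HH4-HH4 grafts at 3 hr. Without the minimum on UMIs per gene, the other pathway genes past 2-fold were 4 for graft over host in HH8-HH4 3 hr and 1 for 3 hr over 0 hr in HH8-HH4 grafts. No share over all genes was taken with 1 CPM added or with 1 eGFP UMI. The pathway counts under these alternatives are therefore not read as results about the pathway. The shares of 0% allow up to 2.59% in HH8-HH4 3 hr grafts, 1.29% in HH8-HH4 3 hr hosts and 0.148% in HH8-HH4 0 hr grafts.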

Other observations

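Barcodes with 1 or 2 eGFP UMIs belonged to neither graft nor host. They held 10.5 CPM of ALDH1A2 in HH8-HH4 3 hr (61 barcodes), 145 CPM in HH8-HH4 0 hr (210 barcodes), 295 CPM in HH4-HH4 3 hr (20 barcodes) and 61.8 CPM in HH4-HH4 0 hr (214 barcodes). RDH10 in them was 48.6, 109, 142 and 65.5 CPM in the same libraries. In HH8-HH4 0 hr, their ALDH1A2 lay between that of graft cells (7.97 CPM) and host cells (177 CPM) and nearer the host. The 534 barcodes of HH8-HH4 3 hr under 2000 UMIs held 8 ALDH1A2 UMIs, or 22.2 CPM (9.57 to 43.7).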
